A study of Homo sapiens with 12 samples.

Results

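The genes described here are the protein-coding zinc finger genes of human chromosome 19 whose symbol is ZNF followed by a number. They were taken from the gene count table by chromosome and symbol, in a rule that uses no measured value but was set with earlier results of these data known, and 249 of the 58288 genes in the table met the rule. Another 49 entries with such a symbol on the chromosome were of other gene types and were left out. The table came from HL-60/S4, an established human promyelocytic leukemia line, and held 12 RNA-seq libraries in 4 groups of 3 flasks. Promyelocytic cells were left undifferentiated, and granulocytic cells had received 1 µM all-trans retinoic acid (ATRA) for 4 days, the agent that drives this line toward a neutrophil-like form. Each cell type was then given 16 ng/mL TNF-α, an inflammatory cytokine, or the same volume of water for 2 h. All 4 groups shared the line, 8 passages and calcium-supplemented medium. The 2 cell types were run as separate experiments, so cell type and experiment cannot be told apart in the levels, and levels were not tested between them.

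Proteins of this family read DNA with tandem C2H2 zinc fingers, small loops held by a zinc ion, each of which contacts a few bases. Most members on chromosome 19 also carry a KRAB domain near the N terminus, which binds the corepressor TRIM28. TRIM28 in turn brings the histone methyltransferase SETDB1, HP1 proteins and histone deacetylases, and the bound site is silenced. Many members silence transposable elements, and the genes themselves arose by repeated tandem duplication, so that they stand side by side in clusters and share sequence.

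The repeat that names the family is visible in the coding sequence of ZNF45 (hg38 chr19:43912629-43935278, minus strand), a KRAB member that rose with TNF-α in both cell types. Its transcript encodes 15 fingers. Consecutive units of 84 bases, all within the coding sequence, are shown 5′ to 3′ on the coding (minus) strand, with the 14 bases that encode the linker between fingers in capitals.
ZNF45 unit 1, chr19:43914122-43914205: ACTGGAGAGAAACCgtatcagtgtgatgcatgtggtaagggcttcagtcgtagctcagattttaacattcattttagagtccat
ZNF45 unit 2, chr19:43914038-43914121: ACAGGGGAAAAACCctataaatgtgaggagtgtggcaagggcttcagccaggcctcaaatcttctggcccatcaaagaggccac
ZNF45 unit 3, chr19:43913954-43914037: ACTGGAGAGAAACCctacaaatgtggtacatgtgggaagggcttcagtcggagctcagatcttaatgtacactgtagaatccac
Units 1 and 3 matched at 68 of 84 bases (81.0%), and unit 2 matched them at 56 and 58. The linker run of units 1 and 3 is the run of 14 bases held by the largest number of members: 150 of 249 had it at least once (60.2%), against 249 of the 19701 coding transcripts of all genes (1.26%). The largest number of copies in 1 member was 18, and of the 479 distances between neighbouring copies 225 (47.0%) were 84 bases.

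Such repeats can bear on the counts, because a read pair from 1 member can match another. Over the canonical transcripts, 100 of 249 members shared at least 1 window of 100 bases with a transcript of another zinc finger gene or another gene of chromosome 19, the genes searched, and 39 shared more than 10% of their windows. The median member shared none. Shared windows are not a measure of repeats alone. They also count exons that overlapping genes hold in common, such as ZNF177 and ZNF559-ZNF177, and the 2 sources were not separated. The primary alignments of read pairs with several matches were counted, so members above 10% are marked where they are named. In granulocytes 8 of the 24 tested members above that limit were lower with TNF-α and 0 were higher, beside 52 lower and 16 higher of 148 at or under it.

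Promoter sequence, taken from RefSeq (GRCh38.p14) as 250 bases before to 50 after the start, was found for 218 members, with the first listed start used where a gene had several. Those of ZNF45 and ZNF627 are shown because these genes moved the same way in both cell types, the first upward and the second downward. Capitals mark the motif GGGNNNNGTAGT, searched on both strands.
ZNF45 promoter, chr19:43935233-43935532, minus strand: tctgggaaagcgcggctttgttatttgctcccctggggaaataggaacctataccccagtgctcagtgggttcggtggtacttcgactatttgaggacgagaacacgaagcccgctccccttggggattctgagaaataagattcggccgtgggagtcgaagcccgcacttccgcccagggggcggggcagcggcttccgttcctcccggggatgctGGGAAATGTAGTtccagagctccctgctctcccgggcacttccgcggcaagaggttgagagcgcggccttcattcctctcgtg
ZNF627 promoter, chr19:11597233-11597532, plus strand: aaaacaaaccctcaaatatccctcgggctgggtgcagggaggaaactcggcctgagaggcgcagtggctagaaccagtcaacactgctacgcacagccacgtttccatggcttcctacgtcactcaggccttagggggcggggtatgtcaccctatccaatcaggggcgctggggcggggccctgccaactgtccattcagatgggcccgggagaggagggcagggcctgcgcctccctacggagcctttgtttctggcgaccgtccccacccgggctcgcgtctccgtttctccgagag
ZNF45 held 1 match and ZNF627 held none. ZNF546, not shown, also fell in both cell types, and its promoter held the motif. No promoter was found for ZNF221, which rose in both. The letters were picked after several member promoters had been read, and the counts that follow are a description of that choice. The motif was in 55 of 218 member promoters (25.2%), in 36 of 217 promoters of ZNF genes on other chromosomes (16.6%), in 41 of 947 of the other protein-coding genes of chromosome 19 (4.33%) and in 865 of 27305 promoters of all genes (3.17%). A match to the NF-κB motif, the binding sequence of the factor that TNF-α activates, was in 13 member promoters (5.96%) and in 10.8% of all. A match is a run of letters, not evidence of binding.

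The members fell into 16 position clusters when neighbours less than 1000000 bases apart, start to start, were joined. Cluster 5 (19.67 to 24.13 Mb, 37 members) had the smallest share of expressed members among the 7 largest, with 15 (40.5%) passing the expression filter in at least 1 cell type. In cluster 3 (11.48 to 12.64 Mb) 14 of 26 passed, and in cluster 15 (51.57 to 53.58 Mb) 23 of 40. By contrast 24 of 26 passed in cluster 9 (36.18 to 37.82 Mb), 22 of 24 in cluster 12 (43.53 to 45.08 Mb), 54 of 59 in cluster 16 (55.48 to 58.48 Mb) and 13 of 16 in cluster 2 (7.07 to 9.79 Mb). The promoter motif was unevenly spread as well: it was in 12 of 25 promoters of cluster 9, 13 of 20 of cluster 12 and 24 of 54 of cluster 16, and in 0 of 25 of cluster 3, 0 of 29 of cluster 5, 1 of 33 of cluster 15 and 2 of 14 of cluster 2. Cluster 2 thus paired a high share of expressed members with few matches. It was in 51 of the 157 promoters of members that passed the filter (32.5%) and in 4 of 61 of the others (6.56%).

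**Figure D1:**
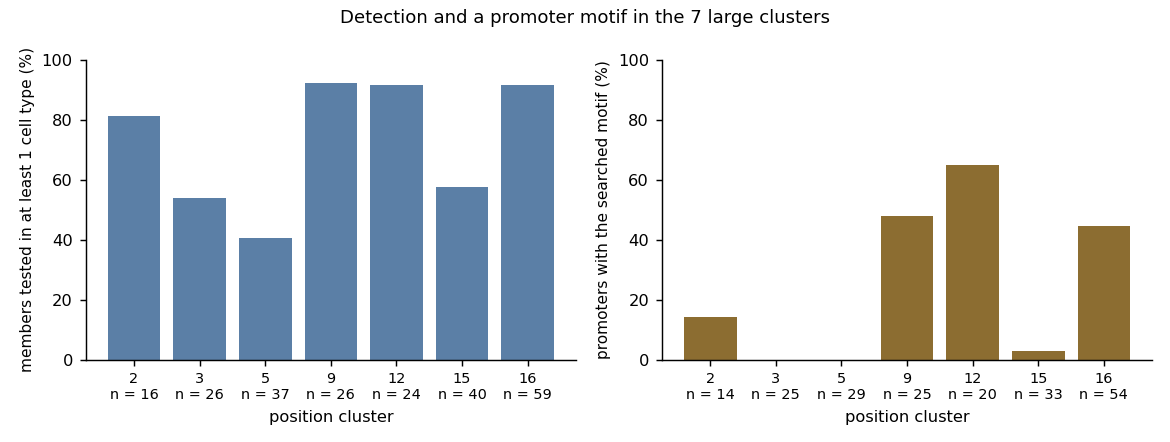
For the 7 position clusters with 16 or more members, the left bars give the share of members that passed the expression filter in at least 1 cell type and the right bars the share of promoters with the motif GGGNNNNGTAGT, both in %, with the number of members or promoters under each bar. Clusters 9, 12 and 16 stand at 91.5% to 92.3% on the left and 44.4% to 65% on the right, and clusters 3 and 5 at 53.8% and 40.5% on the left and 0 on the right.

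In all, 177 of 249 members passed the filter in at least 1 cell type, 173 in promyelocytes and 172 in granulocytes, and 72 passed in neither. No read pair was counted in any library on 36 members, and 61 had 3 counts or fewer in every library. The libraries held 22829189 to 31895061 counts, so that 3 counts stood at 0.0953 to 0.135 CPM, the count scaled to the TMM effective library size, and a member below that was not detectable at this depth. The whole set took 0.342% to 0.377% of the counts in promyelocytes, 0.344% to 0.359% in vehicle-treated granulocytes and 0.296% to 0.305% in TNF-α treated granulocytes. On the normalized scale of the other levels the granulocyte sums lay nearer to each other, at 3310.3 to 3432.5 CPM with vehicle and 3135.5 to 3149.3 with TNF-α. In bulk RNA fewer cells that express a gene and less RNA per cell cannot be told apart.

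Levels were low for most members. Per kilobase of exon, the median with vehicle was 2.64 CPM over the members tested in promyelocytes and 2.44 in granulocytes, beside 4.38 and 4.29 over all genes tested. ZNF146, which consists of zinc fingers with no KRAB-like stretch, was the most abundant at 46.5 ± 0.252 CPM per kilobase in promyelocytes and 25.1 ± 1.85 in granulocytes (mean ± SD, n = 3 with vehicle). By the mean of both cell types the next were ZNF460 at 26.5 ± 0.924 and 21.6 ± 1.79, ZNF121 at 28.3 ± 1.45 and 16.04 ± 0.934, ZNF480 at 18.1 ± 0.762 and 10.6 ± 0.362, and ZNF787 at 12.8 ± 1.105 and 14.3 ± 1.197. In promyelocytes the ranges of ZNF460 and ZNF121 overlapped within 1 SD, and ZNF146 stood above both. In granulocytes ZNF146 overlapped with ZNF460, and ZNF121 with ZNF787. ZNF568, whose mouse counterpart represses Igf2, was the lowest member tested in promyelocytes at 0.0333 ± 0.0116, and it was not tested in granulocytes.

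The best known silencers of young retrotransposons were hardly expressed. ZNF91, which represses SVA elements, had 0 counts in 11 of the 12 libraries and 3 in the other, a TNF-α treated granulocyte library. ZNF93, which represses LINE-1 elements, stood at 0.616, 0.401 and 0.438 CPM with vehicle and 0.358, 0.357 and 0.271 with TNF-α in granulocytes and was not tested in promyelocytes. Its TNF-α libraries were all below its vehicle libraries, but the difference did not pass (log2 fold change -0.54 ± 0.44, adjusted p = 0.3303). ZNF331, often methylated in tumors, was at 0.659 CPM or less in every library (adjusted p = 0.6501 in promyelocytes, not tested in granulocytes).

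Adjusted p-values are from edgeR's quasi-likelihood test within a cell type, with Benjamini-Hochberg adjustment over all genes tested, and fold changes are TNF-α over vehicle on the log2 scale with their standard error. The replicates were flasks of 1 line, so these p-values measure the spread between flasks. NFKBIA, which encodes the inhibitor of NF-κB and is an early TNF-α target, rose from 23.2 ± 0.949 to 348 ± 1.75 CPM in promyelocytes and from 13.2 ± 0.588 to 600.1 ± 27.1 CPM in granulocytes (SD, n = 3). With vehicle, the levels of MPO and ITGAM went with the cell labels. MPO, the promyelocyte granule enzyme, was at 6378 ± 233 CPM in promyelocytes and 2030 ± 97.7 CPM in granulocytes. ITGAM, a surface marker of granulocytic maturation, was at 6.36 ± 0.5398 CPM in promyelocytes and 299 ± 10.02 CPM in granulocytes. ELANE, another granule enzyme, was low at 1.77 ± 0.287 CPM in promyelocytes. Of the markers of other lineages, MS4A1, HBB and PF4 were at 0 in all 12 libraries, and CD14 at 12 counts or fewer. Others on these lists were present. With vehicle, CD4 stood at 76.9 ± 2.92 CPM in promyelocytes and 289 ± 14.6 in granulocytes. CSF1R, a macrophage marker, stood at 3.97 ± 0.364 and 49.95 ± 0.986 CPM, and CD3E at 3.68 ± 0.28 CPM in granulocytes. Some identity markers moved with TNF-α: the summed level of 6 promyelocyte markers went from a range of 7819 to 8430 CPM with vehicle to one of 6463 to 7352 with TNF-α in promyelocytes, where 4 of 6 fell, and that of 8 granulocytic markers from 5071 to 5372 CPM to a range of 5448 to 5766 in granulocytes, where 2 rose and 4 fell. The granulocytic sum rose through NCF1 (1223 ± 78.1 to 1940.0 ± 129.8 CPM), and the median log2 fold change of that list was -0.095. Their part in the results below was not tested.

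In promyelocytes few of the zinc finger genes responded. With TNF-α 7 of the 173 tested rose (4.05%, beside 8.15% of all 16250 genes tested) and 5 fell (2.89%, beside 6.65%). The median log2 fold change of the members was 0.023, and that of all genes tested was -0.009. TNF-α libraries were all above the vehicle libraries in 23 members and all below in 21, beside 16% and 15.1% of all genes. No member that passed changed as much as 2-fold. Zinc finger genes of other chromosomes gave 12 higher and 21 lower of 195, and the other coding genes of chromosome 19 gave 49 and 83 of 681.

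Of the 7 that rose, 4 members of cluster 12 made up most: ZNF222, ZNF221, ZNF45 and ZNF226. Other members lie between some of them. They were 19% of the 21 members tested there, beside 8.15% of all genes tested that rose, and 0 members fell there. Cluster 12 was picked out after its values were seen, so this share is a description. In cluster 9, 2 of 24 tested members rose, in cluster 5, 1 of 14, in cluster 15, 0 of 23, and in cluster 16, 0 of 53. ZNF221 stood at 7.51, 7.44 and 9.16 CPM with vehicle and at 10.2, 10.9 and 12.7 CPM with TNF-α. The groups did not overlap, and the log2 fold change was 0.49 ± 0.12 (adjusted p = 0.00749). ZNF45 stood at 29.9, 32.8 and 35.98 CPM with vehicle and 41.9, 40.2 and 38.6 with TNF-α, again with every treated library above (0.29 ± 0.074, adjusted p = 0.0104). For ZNF226 the values were 26.9, 25.9 and 29.4 and 33.1, 33.7 and 31.8 CPM (0.26 ± 0.072, adjusted p = 0.0167). ZNF222 had the largest fitted change, 0.60 ± 0.17 (adjusted p = 0.01801), from 3.32, 2.64 and 3.64 to 4.49, 5.34 and 4.73 CPM, but 14.7% of its windows were shared with another gene.

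The other 3 were ZNF567 (0.27 ± 0.082, adjusted p = 0.0301) and ZNF146 (0.20 ± 0.057, adjusted p = 0.0192) of cluster 9 and ZNF100 (0.22 ± 0.061, adjusted p = 0.0162) of cluster 5. ZNF146 moved from 192, 194 and 192 to 220.0, 235 and 212 CPM, a small change without overlap. All 3 lost their calls once trends with GC content and length were removed from each library.

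Those that fell were ZNF627 (-0.37 ± 0.101, adjusted p = 0.0176), ZNF552 (-0.33 ± 0.11, adjusted p = 0.04802), ZNF324B (-0.30 ± 0.087, adjusted p = 0.0246), ZNF546 (-0.25 ± 0.082, adjusted p = 0.0484) and ZNF574 (-0.24 ± 0.078, adjusted p = 0.0464). ZNF627 stood at 11.7, 13.1 and 12.7 CPM with vehicle and 9.01, 9.67 and 10.3 with TNF-α, without overlap. ZNF552 and ZNF324B shared 10.5% and 10.9% of their windows with other genes. The folds ran from 0.776 in ZNF627 to 0.849 in ZNF574.

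Most of these calls depended on single libraries. Only ZNF221 was called in all 6 fits that leave out 1 library, with log2 fold changes of 0.39 to 0.59. ZNF45 lost its call without vehicle replicate 1 (0.23 to 0.36), ZNF222 without TNF-α replicate 2 or vehicle replicate 2 (0.48 to 0.70), and ZNF226 and ZNF100 without either of these or vehicle replicate 1 (0.23 to 0.32 and 0.20 to 0.26). ZNF146 held its call only without TNF-α replicate 1 or 3, and ZNF567 only without TNF-α replicate 3 or vehicle replicate 1 (0.17 to 0.24 and 0.24 to 0.30). Among the falls, ZNF324B lost its call without TNF-α replicate 2 or vehicle replicate 1 (-0.34 to -0.23), ZNF627 without TNF-α replicate 1, TNF-α replicate 2 or vehicle replicate 2 (-0.41 to -0.32), ZNF574 in all fits but those without replicate 3 of either group (-0.31 to -0.18), and ZNF546 and ZNF552 in all 6 (-0.28 to -0.20 and -0.39 to -0.23). The number that rose went from 2 without TNF-α replicate 2 or vehicle replicate 2, and 4 without vehicle replicate 1, to 9 without TNF-α replicate 3. The number that fell was 1 without TNF-α replicate 1, TNF-α replicate 2, vehicle replicate 1 or vehicle replicate 2, and 7 without TNF-α replicate 3. With GC content and length trends removed, 4 rose and 11 fell, so the balance of directions turned. ZNF221, ZNF222, ZNF45 and ZNF226 were called higher in that fit, and ZNF226 was not called where the GC trend alone was removed.

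**Figure D2:**
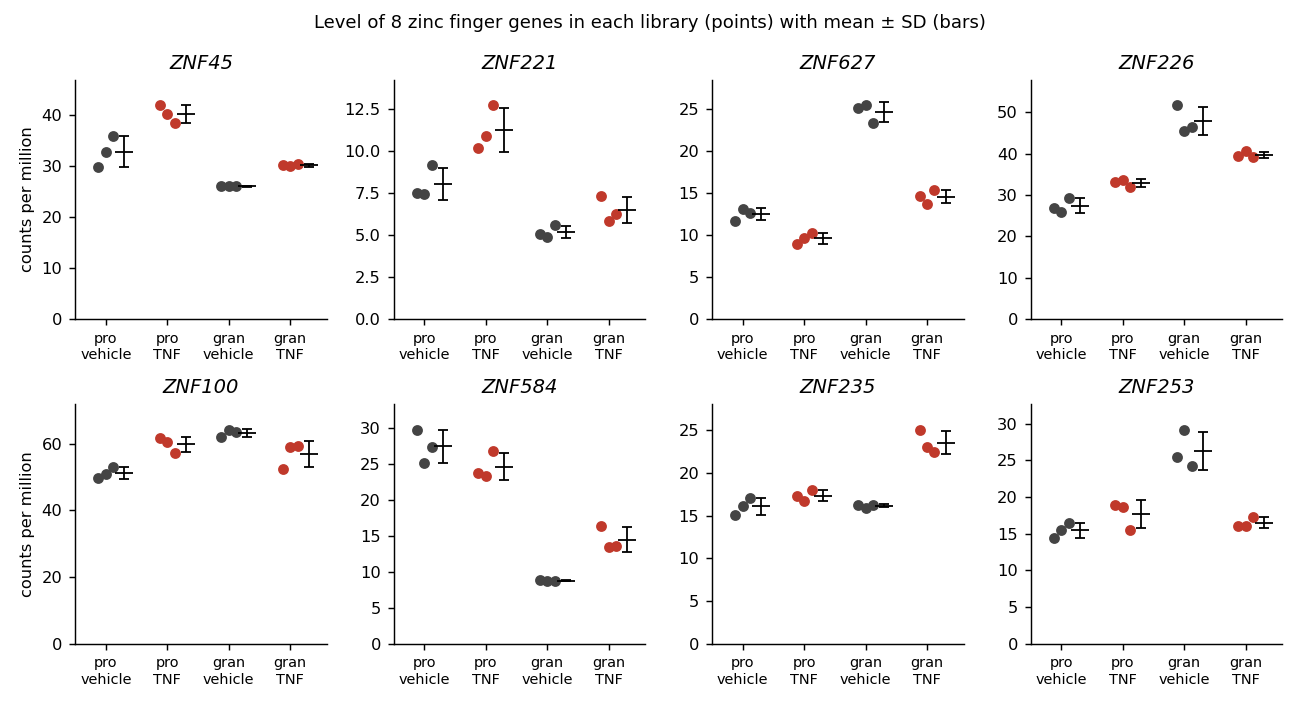
Each panel gives the level of 1 zinc finger gene in CPM (linear axis from 0) in the 3 libraries of each group as points, grey for vehicle and red for TNF-α, with bars for the mean and SD; pro is promyelocytes and gran granulocytes. ZNF45 and ZNF221 rose and ZNF627 fell in both cell types, ZNF226 and ZNF100 rose in promyelocytes and fell in granulocytes, and ZNF584, ZNF235 and ZNF253 were called in granulocytes alone.

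In granulocytes more of the zinc finger genes fell than rose. With TNF-α 60 of the 172 tested members fell (34.9%, beside 24.8% of all 16944 genes tested) and 16 rose (9.3%, beside 24.4%). The median log2 fold change was -0.142, a fold of 0.906, and that of all genes tested was -0.005. Of the members, 53 had a fold change above 0 (30.8%), beside 49.4% of all genes. TNF-α libraries were all below the vehicle libraries in 62 members and all above in 19, beside 27.9% and 27.3% of all genes. Zinc finger genes of other chromosomes gave 75 lower and 33 higher of 199 (37.7% and 16.6%, median -0.062), and the other coding genes of chromosome 19 gave 128 lower and 268 higher of 721 (17.8% and 37.2%, median 0.097). These shares are a description, and the difference between the sets was not tested.

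DESeq2 called 39 members lower and 11 higher. Most of the falls were under 2-fold. ZNF772 stood at 8.66, 9.34 and 9.54 CPM with vehicle and 5.500, 4.43 and 5.596 with TNF-α (-0.84 ± 0.12, adjusted p = 3.10e-07). ZNF429 went from 4.35, 5.51 and 6.14 to 2.68, 3.25 and 3.204 CPM (-0.81 ± 0.16, adjusted p = 6.59e-05). In ZNF627, which also fell in promyelocytes, vehicle libraries held 25.2, 25.5 and 23.3 CPM and TNF-α libraries 14.7, 13.8 and 15.4 (-0.76 ± 0.078, adjusted p = 1.74e-10). Vehicle and TNF-α libraries stood well apart in all 3, and the folds were 0.559, 0.571 and 0.591.

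ZNF253, first described in bone marrow, stood at 25.4, 29.2 and 24.2 CPM with vehicle and 16.1, 16.1 and 17.3 with TNF-α (-0.67 ± 0.079, adjusted p = 3.69e-09). ZNF175, known as OTK18 and for repressing HIV-1 transcription in macrophages, went from 39.9, 42.5 and 43.1 to 25.8, 26.3 and 28.2 CPM (-0.64 ± 0.064, adjusted p = 7.32e-11). ZNF181 went from 9.12, 9.54 and 9.17 to 5.81, 6.83 and 6.18 CPM (-0.56 ± 0.11, adjusted p = 7.09e-05). None of these groups overlapped, and the calls of all 6 genes named so far for granulocytes held in the 6 fits that leave out 1 library.

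Among members whose groups were separate and whose log2 CPM averaged 1 or more, the rest of the 10 largest falls were ZNF256, also described in bone marrow (-0.63 ± 0.21, adjusted p = 0.0108), ZNF571 (-0.59 ± 0.23, adjusted p = 0.0283), ZNF550 (-0.55 ± 0.17, adjusted p = 0.00788) and ZNF490 (-0.55 ± 0.103, adjusted p = 3.03e-05). ZNF490 shared 56.2% of its windows with other genes. The call of ZNF256 was lost without TNF-α replicate 3, that of ZNF550 without TNF-α replicate 2, and that of ZNF571 without TNF-α replicate 3 or vehicle replicate 2. Over those fits the log2 fold changes were -0.77 to -0.43, -0.62 to -0.41 and -0.73 to -0.40. DESeq2 called neither ZNF256 nor ZNF571. The fitted changes of ZNF540 (-1.78), ZNF440 (-1.41) and ZNF837 (-1.30) were larger. These genes did not meet those conditions and are given because they were the 3 members past 2-fold.

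The counts of calls differed between clusters, beside 24.8% lower and 24.4% higher of all genes tested. In cluster 9, 11 of 22 tested members fell (50%) and 0 rose, and in cluster 5, 8 of 15 fell (53.3%) and 0 rose. The part of exon GC content in these counts was not tested. All 3 members of cluster 10 (39.98 to 40.09 Mb), picked out after their values were seen, fell: ZNF780A (-0.39 ± 0.054, adjusted p = 1.53e-07), ZNF780B (-0.24 ± 0.055, adjusted p = 4.33e-04) and ZNF546 (-0.45 ± 0.11, adjusted p = 7.53e-04). ZNF780A stood at 81.3, 88.3 and 78.95 CPM with vehicle and 62.2, 64.3 and 63.3 with TNF-α, without overlap. Cluster 12 was mixed, with 8 lower and 5 higher of 21, and so was cluster 16, with 13 lower and 8 higher of 54. In clusters 2, 3 and 15 the counts were 4 lower and 0 higher of 12, 4 and 0 of 14, and 6 and 1 of 22. The shares that fell in clusters 3, 15 and 16 (28.6%, 27.3% and 24.1%) were near that of all genes.

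**Figure D3:**
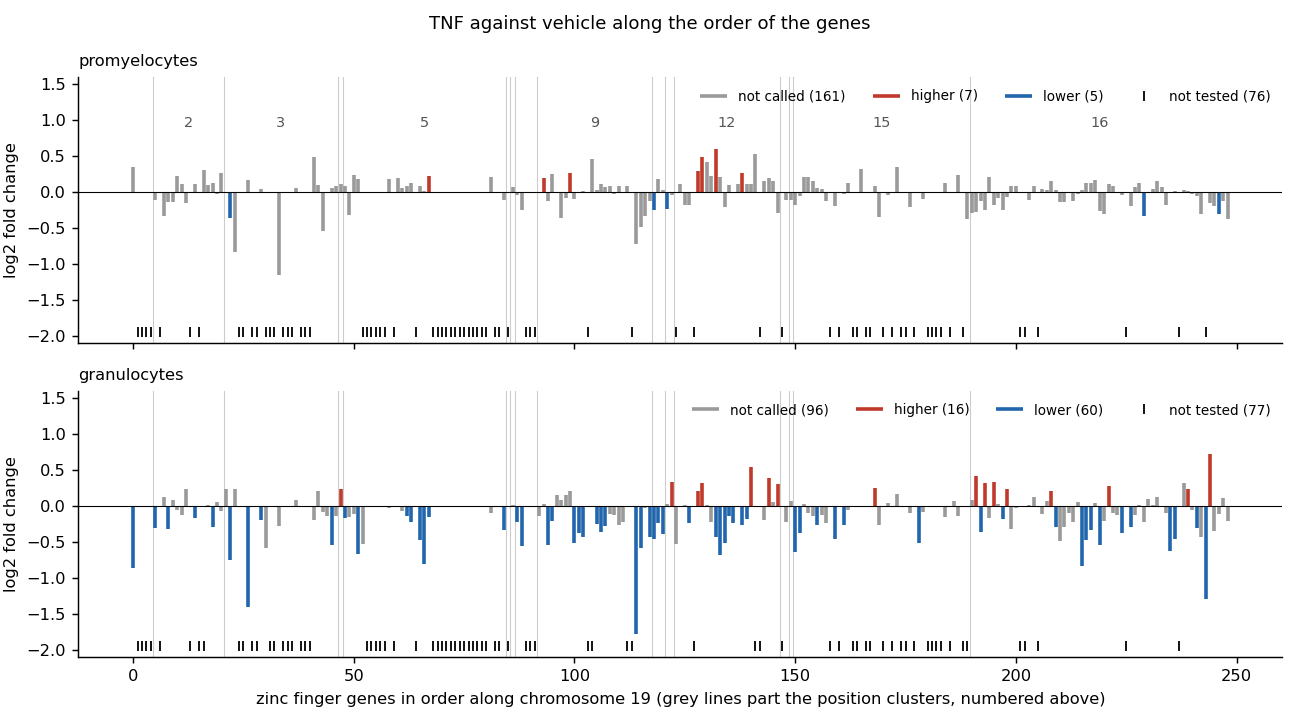
Bars give the log2 fold change with TNF-α of each zinc finger gene, in the order of the genes along chromosome 19, for promyelocytes (top) and granulocytes (bottom); red bars rose, blue bars fell, grey bars were not called, ticks at the foot mark members not tested, and grey lines part the position clusters, of which the 7 largest are numbered. Of the 7 red bars in the top panel 4 lie in cluster 12, and cluster 9 holds 11 blue bars and 0 red ones in the bottom panel.

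The 16 that rose in granulocytes were led by ZNF584, which went from 8.85, 8.68 and 8.73 CPM with vehicle to 16.4, 13.4 and 13.6 with TNF-α (0.72 ± 0.098, adjusted p = 9.39e-08). ZNF235 went from 16.3, 15.9 and 16.2 to 25.04, 23.01 and 22.5 CPM (0.54 ± 0.076, adjusted p = 1.65e-07). All TNF-α libraries lay above the vehicle libraries in both. Of the 5 most abundant members, ZNF460 rose (0.20 ± 0.058, adjusted p = 0.00354) and ZNF787 fell (-0.19 ± 0.064, adjusted p = 0.0147). ZNF460 lost its call without vehicle replicate 1 (0.14 to 0.26), and ZNF787 without TNF-α replicate 3, vehicle replicate 1 or vehicle replicate 3 (-0.25 to -0.12). ZNF787 was also not called by DESeq2 or in the fit of all 12 libraries, and with GC and length trends removed its log2 fold change was -0.39 (adjusted p = 1.22e-07). ZNF229 (0.39 ± 0.11, adjusted p = 0.00405), ZNF235, ZNF45 and ZNF221 all lie in cluster 12, where 8 others fell. They do not all stand side by side.

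ZNF45 held 26.1, 26.1 and 26.2 CPM with vehicle and 30.2, 29.98 and 30.5 with TNF-α (0.21 ± 0.065, adjusted p = 0.006997), and ZNF221 held 5.04, 4.91 and 5.599 and 7.33, 5.86 and 6.23 CPM (0.31 ± 0.13, adjusted p = 0.0458). The first was called in every fit that leaves out 1 library, and the second lost its call without TNF-α replicate 1, vehicle replicate 1 or vehicle replicate 2 (0.22 to 0.39), with DESeq2, without the expression filter and with a replicate block. ZNF274, which binds the 3′ ends of zinc finger genes and marks them with repressive chromatin, stood at 43.9, 46.8 and 48.8 CPM with vehicle and 54.4, 56.1 and 53.8 with TNF-α. Every treated library was above the vehicle libraries (0.24 ± 0.057, adjusted p = 7.29e-04), and the 3 vehicle and 3 TNF-α libraries of promyelocytes overlapped (0.02 ± 0.068, adjusted p = 0.881).

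Members without a KRAB-like stretch made up 6 of the 16 that rose: ZNF579 (0.42 ± 0.11, adjusted p = 0.00217), ZNF526 (0.34 ± 0.069, adjusted p = 1.02e-04), ZNF580 (0.34 ± 0.12, adjusted p = 0.0193) and ZNF444 (0.24 ± 0.092, adjusted p = 0.0313), besides ZNF296 and ZNF865. Of 143 tested members with the stretch 55 fell and 10 rose (38.5% and 6.99%, median log2 fold change -0.157), and of 29 without it 5 fell and 6 rose (17.2% and 20.7%, median 0.009). Of all 16944 genes tested 24.8% fell and 24.4% rose, so members without the stretch did not rise more often than genes at large. Exon GC content moved with the KRAB-like split, with a median of 42.9% over the 212 members with the stretch and 60.0% over the 37 without, and the part it has in the split was not tested. With GC and length trends removed, ZNF579, ZNF580 and ZNF444 were no longer called, and ZNF526 was. ZNF530 (0.28 ± 0.11, adjusted p = 0.0435) and ZNF808 (0.24 ± 0.0802, adjusted p = 0.0112) completed the named rises. Calls of ZNF444, ZNF530 and ZNF580 were each lost without TNF-α replicate 1 or vehicle replicate 3, among others, and their log2 fold changes over those fits were 0.19 to 0.30, 0.25 to 0.32 and 0.28 to 0.44. DESeq2 called none of these 3.

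The number of fingers, 12 in the median member and up to 39, separated the calls little. In granulocytes 16 of 50 tested members with under 10 fingers fell, 20 of 61 with 10 to 14 and 24 of 61 with 15 or more. Across the 172 members Spearman's rho between the number of fingers and the log2 fold change was -0.0565, and between exon length and the log2 fold change -0.0463. These are correlations across genes of the same libraries, which are not independent replicates. The promoter motif was in 21 of 56 promoters of members that fell (37.5%), 6 of 15 of those that rose and 22 of 82 of those not called (26.8%).

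GC content was checked because the members are poor in G and C beside their chromosome. The median exon GC was 43.2% in the 249 members, 45.4% in zinc finger genes of other chromosomes and 59.3% in the other coding genes of chromosome 19. Across all genes the fold change ran with GC content in opposite senses in the 2 cell types: Spearman's rho was -0.259 over 16250 genes in promyelocytes and 0.145 over 16944 in granulocytes, and over the members -0.315 and 0.198. Libraries within a group differed too. In the lowest of 5 GC groups of equal size, the median log2 deviation from the cell-type mean ran from -0.008 to 0.091 over the TNF-α treated promyelocyte libraries and from -0.081 to 0.003 over the TNF-α treated granulocyte libraries.

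Within these 5 groups of like GC content, a larger share of members than of the rest fell in granulocytes in the 2 lowest groups, which held 108 of the 172. In the lowest, 18 of 35 members fell and 0 rose (51.4% lower), against 1039 lower and 584 higher of 3355 other genes (31% lower). In the next, 28 of 73 fell and 4 rose (38.4% lower), against 937 and 712 of 3315 (28.3% lower). In the middle group the shares were 27% and 24.5%. In the fourth, 16.7% of 6 members and 21.5% of others fell, and in the highest, 14.3% of 21 members and 18.6% of others. In promyelocytes the lowest group held 3 risen and 1 fallen of 34 members, against 423 and 53 of 3216 other genes. With GC and length trends removed from each library, 54 members fell and 14 rose in granulocytes, 52 and 11 of them the same genes as before, and the median was -0.127.

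**Figure D4:**
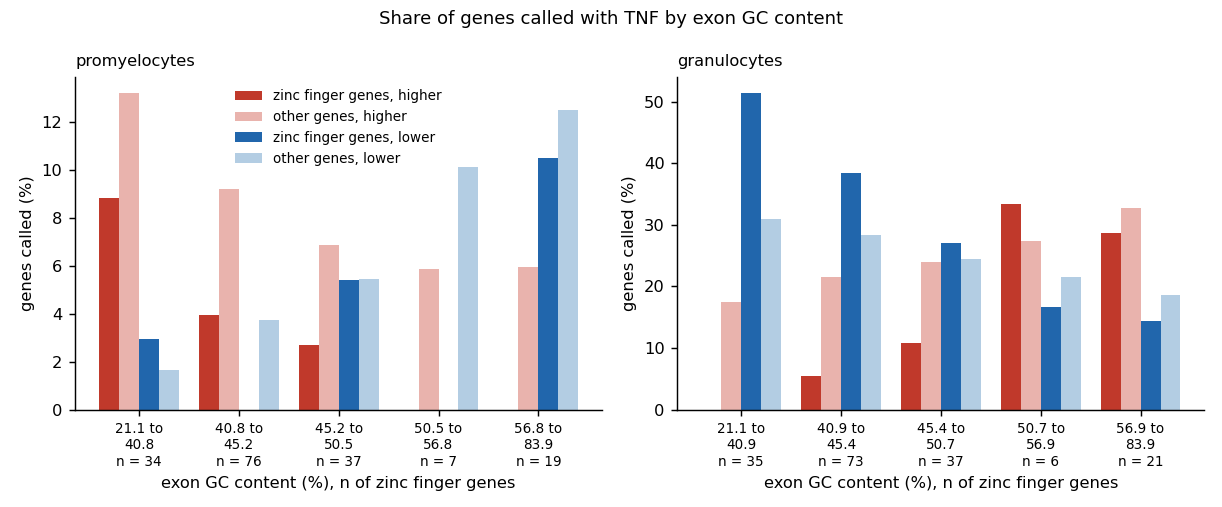
Bars give the share of tested genes (%) called higher (red) or lower (blue) with TNF-α in each of 5 groups of exon GC content, dark for the zinc finger genes and light for all other genes, in promyelocytes (left) and granulocytes (right, with its own scale); the range of GC content and the number of zinc finger genes stand under each group. In the lowest group of granulocytes the dark blue bar is at 51.4% and the light one at 31%, while promyelocyte bars stay at or under 13.2%.

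The response was compared between the cell types in 1 fit of all 12 libraries. It differed for 32 of 177 members: in 24 the change in granulocytes was lower than that in promyelocytes (13.6%, beside 9.88% of all 18124 genes tested) and in 8 it was higher (4.52%, beside 14.1%). No expression filter gave 35 and 6, a more one-sided split. Without TNF-α replicate 3 of promyelocytes it was 27 and 14, a less one-sided one. Over all alternatives the higher ones made up 10.5% to 34.1% of the calls, against 25% in the main fit. Of the 168 members tested in both cell types 7 were called in both. ZNF45 and ZNF221 rose in both, ZNF627 and ZNF546 fell in both, and ZNF100, ZNF222 and ZNF226 rose in promyelocytes and fell in granulocytes, while 0 did the reverse. With GC and length trends removed the tally was different: ZNF45 and ZNF221 rose in both, 10 members fell in both, namely ZNF175, ZNF181, ZNF283, ZNF324B, ZNF546, ZNF550, ZNF566, ZNF571, ZNF616 and ZNF627, and ZNF226 was the 1 opposite call. The call of ZNF546 in promyelocytes was lost with DESeq2, without the expression filter, with a replicate block and in the fit of all 12 libraries. It was also lost in all 6 fits that leave out 1 library. Across these 168 genes Pearson's r between the 2 sets of fold changes was 0.131 (Spearman's rho 0.116), and across all 15393 genes tested in both it was 0.609 (0.369).

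ZNF226 stood at 51.6, 45.4 and 46.4 CPM with vehicle and 39.4, 40.6 and 39.2 with TNF-α in granulocytes (-0.26 ± 0.0605, adjusted p = 3.76e-04), the reverse of its rise in promyelocytes, and the difference of the responses was -0.49 ± 0.094 (adjusted p = 2.58e-04). In ZNF100 the granulocyte values were 61.8, 64.1 and 63.4 and 52.3, 59.03 and 59.3 CPM (-0.15 ± 0.057, adjusted p = 0.0268), and the difference was -0.34 ± 0.082 (adjusted p = 0.00298). ZNF222 overlapped between the granulocyte groups (4.27, 3.77 and 4.35 against 3.98, 2.75 and 2.44 CPM, -0.44 ± 0.18, adjusted p = 0.0365), with a difference of -0.997 ± 0.25 (adjusted p = 0.00357). Of the 3, ZNF226 kept both calls with GC and length trends removed (with the GC trend alone removed, it lost that in promyelocytes), whereas ZNF100 kept neither and ZNF222 kept that in promyelocytes. In granulocytes ZNF226 held its call in every fit that leaves out 1 library, ZNF100 lost it without TNF-α replicate 1, vehicle replicate 2 or vehicle replicate 3 (-0.17 to -0.09), and ZNF222 held it only without TNF-α replicate 1 or vehicle replicate 2 (-0.66 to -0.30).

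The 5 smallest p-values of the difference belonged to ZNF584 (0.92 ± 0.13, adjusted p = 6.85e-06), ZNF253 (-0.82 ± 0.13, adjusted p = 1.61e-05), ZNF226, ZNF780A (-0.38 ± 0.081, adjusted p = 8.89e-04) and ZNF772 (-0.83 ± 0.18, adjusted p = 9.59e-04). In promyelocytes ZNF584 stood at 29.7, 25.1 and 27.4 CPM with vehicle and 23.8, 23.4 and 26.7 with TNF-α, with overlap, and ZNF253 at 14.4, 15.5 and 16.4 and 18.9, 18.7 and 15.4 CPM, also with overlap. Neither passed there (adjusted p = 0.244 and 0.217). ZNF675, which binds TRAF6 and dampens NF-κB signaling, had log2 fold changes of 0.21 ± 0.075 and -0.10 ± 0.068 (adjusted p = 0.0718 and 0.214), and the difference did not pass (-0.27 ± 0.102, adjusted p = 0.0537). ZNF382, a KRAB repressor described as acting on NF-κB signaling, did not pass in either cell type either (-0.35 ± 0.14 and 0.09 ± 0.12, adjusted p = 0.0963 and 0.576), although it passed in promyelocytes without TNF-α replicate 2 (-0.50 to -0.28 over the 6 fits), with the GC trend removed and in the fit of all 12 libraries.

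**Figure D5:**
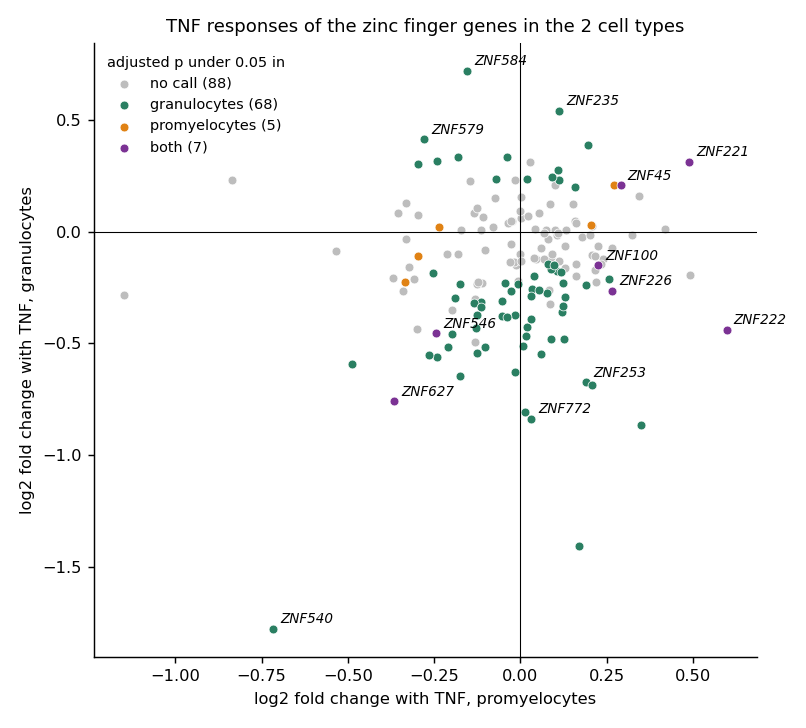
Each point is 1 of the 168 zinc finger genes tested in both cell types, with its log2 fold change with TNF-α in promyelocytes on the x axis and in granulocytes on the y axis; color shows where it was called. Of the 7 called in both, ZNF45 and ZNF221 lie at upper right, ZNF627 and ZNF546 at lower left, and ZNF100, ZNF226 and ZNF222 at lower right, and 68 were called in granulocytes alone.

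Genes that KRAB zinc finger proteins work through were measured beside them, together with related genes such as TRIM24 and UHRF1. Of these 19 genes, called partners here, 18 were tested, and ZFP57, itself a zinc finger protein, had 0 counts in every library. In promyelocytes 1 rose and 1 fell, where 8.15% of all genes tested rose and 6.65% fell. In granulocytes 3 rose and 10 fell, where 24.4% of all genes rose and 24.8% fell, and the median log2 fold change of the partners was -0.148. The corepressor TRIM28 went from 228 ± 10.2 to 191 ± 8.76 CPM in granulocytes (SD, n = 3; -0.26 ± 0.05003, adjusted p = 4.85e-05), SETDB1 from 98.3 ± 4.25 to 88.5 ± 1.87 (-0.15 ± 0.051, adjusted p = 0.0128), and ATF7IP, the partner that stabilizes SETDB1, from 129 ± 7.51 to 89.1 ± 2.99 (-0.53 ± 0.052, adjusted p = 6.65e-11). All 3 HP1 genes fell, with log2 fold changes of -0.18 ± 0.061 for CBX1, -0.15 ± 0.051 for CBX3 and -0.15 ± 0.049 for CBX5 (adjusted p = 0.0134, 0.0123 and 0.0129).

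Of the HUSH complex, which spreads silencing over transposons, TASOR fell (-0.37 ± 0.048, adjusted p = 4.87e-08), PPHLN1 fell (-0.15 ± 0.048, adjusted p = 0.00955), and MPHOSPH8 did not pass (-0.08 ± 0.054, adjusted p = 0.234), nor did its associate MORC2 (-0.08 ± 0.053, adjusted p = 0.198). TRIM24, a relative of TRIM28, fell by most (-0.76 ± 0.054, adjusted p = 1.04e-14), and UHRF1, which guides DNA methylation after replication, fell in both cell types (-0.23 ± 0.057 and -0.42 ± 0.054, adjusted p = 0.00772 and 3.08e-08). The 3 that rose in granulocytes were CHD4, the remodeler of the NuRD deacetylase complex (0.61 ± 0.052, adjusted p = 2.24e-12), the deacetylase HDAC2 (0.19 ± 0.051, adjusted p = 0.00184) and the methyltransferase DNMT1 (0.19 ± 0.0503, adjusted p = 0.001805). CHD4 also rose in promyelocytes (0.23 ± 0.059, adjusted p = 0.0128). CHD3, HDAC1 and TRIM33 passed in neither cell type. In the edgeR fit of all 12 libraries, the difference of the responses passed only for ATF7IP (-0.37, adjusted p = 0.00203), TASOR (-0.32, adjusted p = 0.00145), TRIM24 (-0.82, adjusted p = 5.98e-09) and CHD4 (0.42, adjusted p = 3.55e-04). It did not pass for TRIM28 (adjusted p = 0.653), SETDB1 (0.771) or CBX1, CBX3 and CBX5 (0.0829, 0.0995 and 0.189), nor for the remaining partners.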

How the data were processed

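Ribosome-depleted total RNA of 12 HL-60/S4 libraries was sequenced, and the authors deposited raw counts per gene (hg38, GENCODE v27) after FastQC 0.11.4, STAR 2.5.3a and featureCounts 1.5.2 in reverse-stranded mode, in which primary alignments of multi-mapping pairs were also counted. The counts are not normalized, and total 22829189 to 31895061 per library. Groups were taken from the sample titles. The members and the gene lists were chosen with earlier results of these data known.

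Counts were tested as deposited with edgeR 4.0.16 (R 4.3.3): TMM factors, genes kept by filterByExpr (minimum count 10, total 15), quasi-likelihood fits of the 6 libraries of each cell type, and a fit of all 12 for the difference of the responses. Calls were made at a Benjamini-Hochberg adjusted p under 0.05 over all genes tested. CPM values are counts scaled to the TMM effective library size of each cell type. The approach was tested on simulated counts in which 200 genes changed, by more than most members did. The fit recovered 199 with 19 false calls in promyelocytes and 200 with 5 in granulocytes. With a GC bias put into the simulated granulocyte counts, it made 6710 false calls, and 14 once GC and length trends were removed. Genes were named by rule: per cell type and direction, the 10 largest called changes whose groups were separate and whose log2 CPM averaged 1 or more, then the 5 smallest p-values of the difference, all opposite calls, the 5 highest levels and the lowest, 6 members of known role and the silencing partners. Alternatives were DESeq2 1.42.0, its size factors, no filter, GC and length offsets, a replicate block, 1 fit of all libraries, and leaving out each library. Fingers and KRAB-like stretches were counted in translated coding sequences, and exon GC content over all exons of a gene. The limit set by 3 counts covers counting error only.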

Additional observations from a re-analysis of the deposited data

Results flagged for a closer look

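Of the named zinc finger genes, 15 drew attention because their response to TNF-α differed between the cell types in the edgeR fit of all 12 libraries (Benjamini-Hochberg adjusted over all genes tested). Values are the log2 fold change in granulocytes minus that in promyelocytes.

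The response was lower in granulocytes for ZNF100 (-0.34, adjusted p = 0.00298), ZNF175 (-0.43, adjusted p = 0.00103), ZNF222 (-0.997, adjusted p = 0.00357), ZNF226 (-0.49, adjusted p = 2.58e-04), ZNF253 (-0.82, adjusted p = 1.61e-05), ZNF429 (-0.78, adjusted p = 0.0244), ZNF490 (-0.57, adjusted p = 0.0124), ZNF627 (-0.35, adjusted p = 0.03303), ZNF772 (-0.83, adjusted p = 9.59e-04) and ZNF780A (-0.38, adjusted p = 8.89e-04).

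It was higher in granulocytes for ZNF235 (0.47, adjusted p = 0.00205), ZNF274 (0.25, adjusted p = 0.03904), ZNF526 (0.42, adjusted p = 0.00481), ZNF579 (0.73, adjusted p = 0.00188) and ZNF584 (0.92, adjusted p = 6.85e-06).

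ZNF627 fell in both cell types, and by more in granulocytes. Groups held 3 libraries, too few for a search for outlying libraries.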

How the results depend on the processing

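Counts of members called in promyelocytes depended on the processing. Against 7 higher and 5 lower, removing GC and length trends gave 4 and 11, removing the GC trend alone 3 and 12, DESeq2 7 and 2, and 1 fit of all 12 libraries 8 and 9. Leaving out each library gave 2 to 9 higher and 1 to 7 lower. In granulocytes, against 16 higher and 60 lower, DESeq2 gave 39 lower, and the fits without 1 library gave 12 to 16 higher and 46 to 57 lower. The response differed between the cell types in 32 members, and in 24 to 41 without 1 library. The median log2 fold change of the members lay between -0.156 and -0.110 in granulocytes and between -0.024 and 0.043 in promyelocytes over these settings. No value that passed the test changed sign. The causes of these shifts were not tested.

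The replicate number as a block gave 4 higher and 2 lower in promyelocytes, 14 and 54 in granulocytes, and with GC and length trends also removed 2 and 7, 12 and 48, and 19 members whose response differed. The numbers did not pair the flasks: the correlations of same-numbered residuals were -0.146, -0.064 and -0.044 in promyelocytes and -0.066, -0.013 and -0.067 in granulocytes. Members at 3 counts or fewer in every library, 61 in all, were not detectable at this depth.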

Other observations

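Members that were not tested still held some reads: 188 of the 249 had more than 3 counts in at least 1 library, while 177 were tested. Of the members tested in 1 cell type alone, 5 were tested in promyelocytes and 4 in granulocytes.

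GC content and CpG number of the promoters set the members little apart. The median GC content was 59.9% in the 218 member promoters and 63.0% in those of coding genes, and the median number of CpG pairs was 20.0 and 22.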
